A study of Mus musculus with 48 samples.

Results

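The genes described here are the mouse Hox cluster genes, taken as every protein-coding gene whose symbol is Hoxa, Hoxb, Hoxc or Hoxd followed by a number. The RefSeq annotation of GRCm38.p6, the assembly also called mm10, holds 39 of them among 21887 protein-coding genes. They lie in 4 clusters: HoxA with 11 genes on chromosome 6, HoxB with 10 genes at chr11:96194316-96368254, HoxC with 9 genes at chr15:102921131-103036856 and HoxD with 9 genes at chr2:74668225-74765142. By position, 12 belong to paralog groups 1 to 4, 11 to groups 5 to 8 and 16 to groups 9 to 13. A value was given to a gene when a listed event, domain or tested region lay within 1 kb of either of its annotated ends. The windows of neighbours touch, so that 1 domain can stand for several genes, and the annotated span of Hoxa3, Hoxb3 and Hoxd3 reaches over other members.

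Hox genes encode homeodomain transcription factors that give cells their position along the body axis. Within a cluster, genes of low paralog number are switched on early and in anterior tissue, and genes of high paralog number later and in posterior tissue. In embryonic stem cells the clusters are silent for the most part and are the textbook case of bivalent chromatin, where Polycomb repressive complex 2 deposits H3K27me3 over long stretches while the promoters also carry H3K4me3, the mark left by SETD1A and related MLL enzymes.

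ChIP-seq was performed in mouse embryonic stem cells of the Ainv15 line for 9 targets, with 2 samples per group, 24 groups and 48 samples in all. The question the design poses is what the zinc finger proteins ZBTB11 and ZFP131 do to the chromatin of these cells. Wildtype cells carried the iCre cassette. Zbtb11KO cells carried an inducible iZbtb11-HA transgene, Zfp131KO cells iZfp131-HA, and the double knockout (Zbtb11KO Zfp131KO) both iZbtb11-HA and iZfp131-V5, all kept uninduced: these 4 groups were grown for 3 days without doxycycline in medium with LIF and without the 2 kinase inhibitors (-2i). H3K4me3 and NELF were profiled in all 4 genotypes, and H3K27me3, H3K27ac, CHD4 and SIN3A in wildtype and the 2 single knockouts. SETD1A and polymerase II phosphorylated on serine 5 were profiled in wildtype. HA was profiled in the Zbtb11KO and Zfp131KO lines grown for 3 days with doxycycline and with LIF and the inhibitors (+2i), where the tagged ZBTB11 or ZFP131 replaces the missing protein, so binding and chromatin were measured in different media. Whether each knockout is 1 clone, and whether the 2 samples of a group are separate cultures, was not given in the sources used here.

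Each deposited list gives a pooled value per group, and each deposited comparison gives a value per region, so no spread between the 2 samples of a group could be seen, and the p-values measure the spread as the authors' model estimated it. Both knockouts were compared with the same wildtype samples. Event lists rested on 24.0 to 71.6 M reads (M, mega) each. For wildtype NELF the list's header names 1 replicate where the others name 2. As a check of the cells, all 8 embryonic stem cell markers looked at carried serine 5 polymerase in wildtype, at a median of 7865 reads, whereas 1 of 7 fibroblast markers did, at 12 reads, and none of the 7 was listed for H3K27ac in any of the 3 genotypes profiled. In the authors' deposited tables H3K4me3 rose at 3 of 4 primitive endoderm markers tested in Zbtb11KO and 4 of 5 in Zfp131KO (adjusted p under 0.05). Of all genes tested, 42.9% and 33.5% rose. In Zbtb11KO it rose at 1 of 7 embryonic stem cell, 1 of 6 fibroblast, 2 of 4 mesoderm and 1 of 4 neural markers. It fell there at 4, 0, 1 and 0 of them. In Zfp131KO it rose at 0, 1, 1 and 1 of these and fell at 0, 1, 1 and 0. The part of such marker changes in the Hox results was not tested.

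Promoter sequences were available from RefSeq (GRCm38.p6) for 22 of the 39 genes, with 2 start sites each for Hoxa10 and Hoxd11. Over the 250 bases upstream of the start, these 24 promoters held a median of 12.5 CG dinucleotides (range 2 to 35), against a median of 6 over the 32827 other promoters, and CG density is a feature by which Polycomb complexes and the H3K4 methyltransferases are known to be recruited. The letters TATAAA, on either strand, stood in 4 of the 24 (16.7%, against 12.4% of the others) and GGGCGG, on either strand, in 10 (41.7%, against 32.7%). Below are 4 of these stretches, chosen because they span what the marks did: Hoxb1 had fewer listed H3K4me3 reads in each knockout than in wildtype, Hoxd8 and Hoxd9 were among the largest rises, and Hoxd1 has a ZBTB11 event on the annotated start itself. Capitals mark CG dinucleotides.
Hoxb1 (chr11:96365508-96365757, + strand): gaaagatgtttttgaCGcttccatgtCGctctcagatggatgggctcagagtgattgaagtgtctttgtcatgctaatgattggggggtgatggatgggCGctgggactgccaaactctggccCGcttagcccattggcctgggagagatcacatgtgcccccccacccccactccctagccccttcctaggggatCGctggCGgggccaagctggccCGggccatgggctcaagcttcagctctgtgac
Hoxd1 (chr2:74762730-74762979, + strand): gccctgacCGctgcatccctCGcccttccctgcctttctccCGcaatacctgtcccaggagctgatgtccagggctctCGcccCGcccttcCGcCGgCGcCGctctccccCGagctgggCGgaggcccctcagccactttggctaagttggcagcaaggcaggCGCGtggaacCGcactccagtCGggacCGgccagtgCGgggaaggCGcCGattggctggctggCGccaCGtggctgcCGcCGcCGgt
Hoxd8 (chr2:74704365-74704614, + strand): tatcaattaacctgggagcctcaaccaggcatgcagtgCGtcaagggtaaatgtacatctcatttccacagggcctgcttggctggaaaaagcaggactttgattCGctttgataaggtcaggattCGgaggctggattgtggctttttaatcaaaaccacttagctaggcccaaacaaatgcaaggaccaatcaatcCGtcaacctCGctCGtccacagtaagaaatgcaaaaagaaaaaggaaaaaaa
Hoxd9 (chr2:74697513-74697762, + strand): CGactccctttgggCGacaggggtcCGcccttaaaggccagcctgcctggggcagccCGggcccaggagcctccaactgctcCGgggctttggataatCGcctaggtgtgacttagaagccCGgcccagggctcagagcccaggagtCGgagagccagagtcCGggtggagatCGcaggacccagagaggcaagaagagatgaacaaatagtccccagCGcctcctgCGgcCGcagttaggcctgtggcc
Hoxd1 holds 24 CG dinucleotides in these 250 bases, Hoxd9 13, Hoxb1 7 and Hoxd8 6. Hoxd8, with one of the largest H3K4me3 changes in Zbtb11KO, and Hoxb1, which stood lower, thus have like CG content, below the Hox median and close to the median of the other promoters.

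In wildtype cells H3K27me3 domains lay over most of HoxC, HoxD and HoxA and over a smaller share of HoxB. All 39 genes had a listed domain, where 24.6% of all genes did. HoxA held the domain with the most reads of the entire wildtype list, 16857 reads over 31.1 kb across Hoxa7, Hoxa9 and Hoxa10. The top domain of HoxD ranked 3 (11731 reads, 21.6 kb, Hoxd8 to Hoxd10), that of HoxB 6 (8954 reads, 16.1 kb, around Hoxb5 and Hoxb6) and that of HoxC 18 (6906 reads, 13.4 kb). Domains covered 73.4% of HoxA, 54.5% of HoxB, 88.9% of HoxC and 86.2% of HoxD, each taken with 1 kb on either side. The gaps lay mostly on the side of the low paralog numbers: Hoxa4 had 712 reads in its domains, among the lowest values of the 39. HoxB has a further gap in the long stretch between Hoxb9 and Hoxb13, which holds no Hox gene.

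In both knockouts the same clusters were listed as many short domains. HoxA had 50 domains in wildtype against 79 (Zbtb11KO) and 95 (Zfp131KO), HoxB 75 against 101 and 136, HoxC 45 against 100 and 121, and HoxD 41 against 69 and 98. The covered share was lower in all 4 clusters in both knockouts: in HoxC it was 61.2% in Zbtb11KO and 43.7% in Zfp131KO, in HoxD 71.0% and 47.9%, in HoxA 48.9% and 50.4% and in HoxB 36.6% and 32.0%. The longest domain of HoxA measured 6.11 kb in Zbtb11KO and 3.97 kb in Zfp131KO. Reads per covered kb were also lower, at 480 in wildtype, 402 in Zbtb11KO and 323 in Zfp131KO over HoxA, and 491, 420 and 311 over HoxD. In Zbtb11KO all 39 genes kept a listed domain (26.9% of all genes listed), and in Zfp131KO 38 did (27.8% of all genes). Over the entire genome the lists held 6.43 M, 5.62 M and 3.72 M H3K27me3 reads (wildtype, Zbtb11KO, Zfp131KO), and the HoxD cluster took 0.654%, 0.526% and 0.396% of them. A domain caller splits a stretch when its signal nears the threshold, so the number and length of domains move with depth as well as with the mark, and the part of each was not tested.

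**Figure D1:**
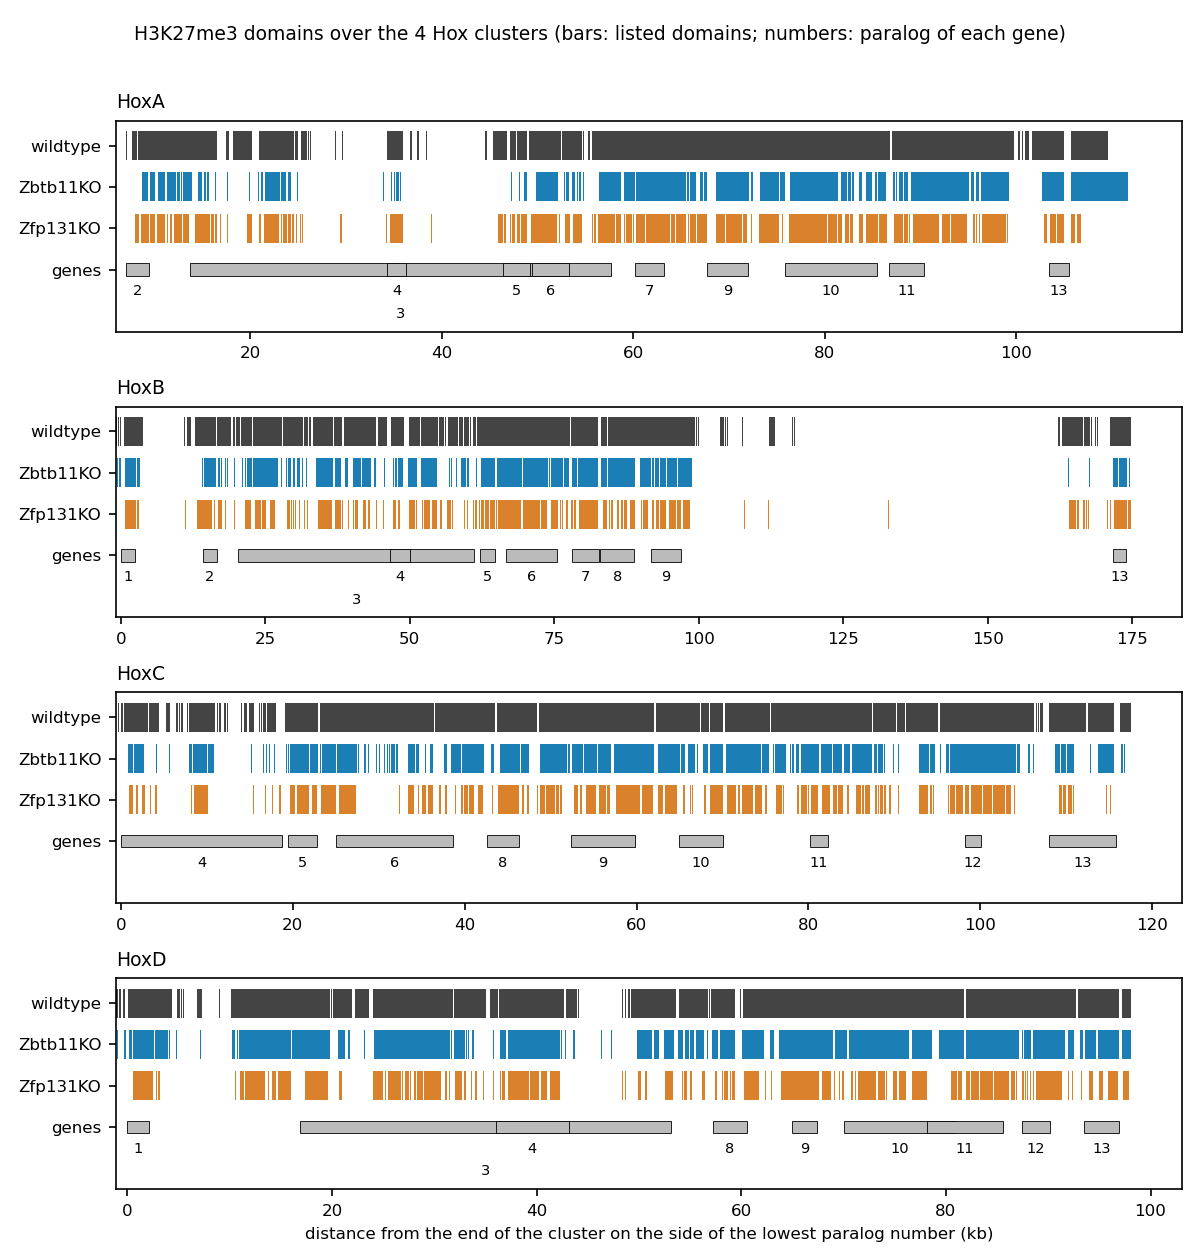
H3K27me3 domains of the pooled wildtype, Zbtb11KO and Zfp131KO lists (coloured bars) along the 4 Hox clusters, with the annotated gene spans below them (grey bars, numbered by paralog; the HoxA panel begins near Hoxa2); the horizontal axis is the distance in kb from the cluster end on the side of the lowest paralog number. The wildtype bars, of up to 31.1 kb, are more broken up in both knockouts, and the covered share is lower there in each of the 4 clusters, from 88.9% to 61.2% and 43.7% in HoxC and from 54.5% to 36.6% and 32.0% in HoxB.

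The authors' deposited tables compare the same regions between genotypes. In Zfp131KO, H3K27me3 fell at 18 of the 39 Hox genes, which are 12 distinct regions, and rose at none (28 were lower and 0 higher at an unadjusted DESeq2 p under 0.05), where 6.59% of the 6570 genes tested fell and 9.95% rose. The median log2 fold change over the 39 was -0.85, against -0.15 over all genes tested, and 37 of the 39 values were below 0. The calls lay mostly on the posterior side of the clusters and outside HoxA: 10 of 16 genes of paralog groups 9 to 13, 6 of 11 of groups 5 to 8 and 2 of 12 of groups 1 to 4 fell, and by cluster 7 of 9 in HoxD, 5 of 9 in HoxC, 5 of 10 in HoxB and 1 of 11 (Hoxa11) in HoxA. In distinct regions these were 8, 4 and 2 by position and 4, 5, 2 and 1 by cluster. Region width differed between genes. In groups 1 to 4 the uncalled Hoxa2, Hoxa4, Hoxb1, Hoxc4 and Hoxd4 rested on 61, 40, 77, 43 and 69 bp. The uncalled Hoxa3, Hoxb2, Hoxb4 and Hoxd1 rested on 31123, 3587, 1970 and 4264 bp. The part of region width in the order by position was not tested. HoxA values were not far behind, since the 31-kb region shared by Hoxa7, Hoxa9 and Hoxa10 stood at -0.79 in the authors' deposited table.

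Hoxc13, which acts in hair and nail formation, had the lowest value. Its listed H3K27me3 reads were 3754 in wildtype, 903 in Zbtb11KO and 43 in Zfp131KO. The authors' deposited table puts the region at chr15:102921291-102924325, a part of the gene (chr15:102921131-102928814), at a log2 fold change of -1.82 (SE 0.43, DESeq2 adjusted p = 0.000555) in Zfp131KO. The next lowest in that knockout were Hoxc6, a thoracic patterning gene, at -1.18 (SE 0.34, adjusted p = 0.00746), and the 21.6-kb region that Hoxd8, Hoxd9 and Hoxd10 share, at -1.08 (SE 0.34, adjusted p = 0.0158), both from the authors' deposited table. Hoxd13, the most posterior HoxD gene and a gene of digit formation, had 8689, 1922 and 728 listed reads in wildtype, Zbtb11KO and Zfp131KO. The wildtype value includes the whole of a 10808-bp domain of 6078 reads that Hoxd13 shares with Hoxd11 and Hoxd12. At Hoxc13 and Hoxd13 alike, listed reads are not scaled and count each domain touching the window in full. They therefore do not give the size of a change. The tested region of Hoxd13, of 913 bp, stood at -1.08 (SE 0.33, adjusted p = 0.0119) by the authors' deposited table for Zfp131KO. In that comparison Hoxc10 had the strongest region of HoxC, at -0.74 (SE 0.30, adjusted p = 0.0688), and the 16.1-kb region that stands for Hoxb3 the strongest of HoxB, at -0.91 (SE 0.33, adjusted p = 0.0368); both are values of the authors' deposited table. Values above 0 were found at Hoxb1 and Hoxc4 alone, and neither passed the test. They rest on regions of 77 bp and 43 bp. The 3898-bp region of Hoxc5, which in Zbtb11KO also stands for Hoxc4, was at -0.83 in Zfp131KO (SE 0.33, adjusted p = 0.0598).

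In Zbtb11KO, H3K27me3 fell at 2 of the 39 genes and rose at none (14 were lower and 0 higher at an unadjusted DESeq2 p under 0.05), where 3.51% of the 6359 genes tested fell and 6.46% rose. These were Hoxa2, a hindbrain gene, at -0.98 (SE 0.33, adjusted p = 0.0274) over 8164 bp, and Hoxc6 at -0.97 (SE 0.32, adjusted p = 0.0274) over 13270 bp, both as the authors' deposited table has them. All 39 values were negative, with a median of -0.50 against -0.13 over all genes tested. The count depends on the region that stands for a gene: with the region of smallest adjusted p it was 11, and with the region of most signal over its width it was 5. The difference between the 2 knockouts was not tested.

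**Figure D2:**
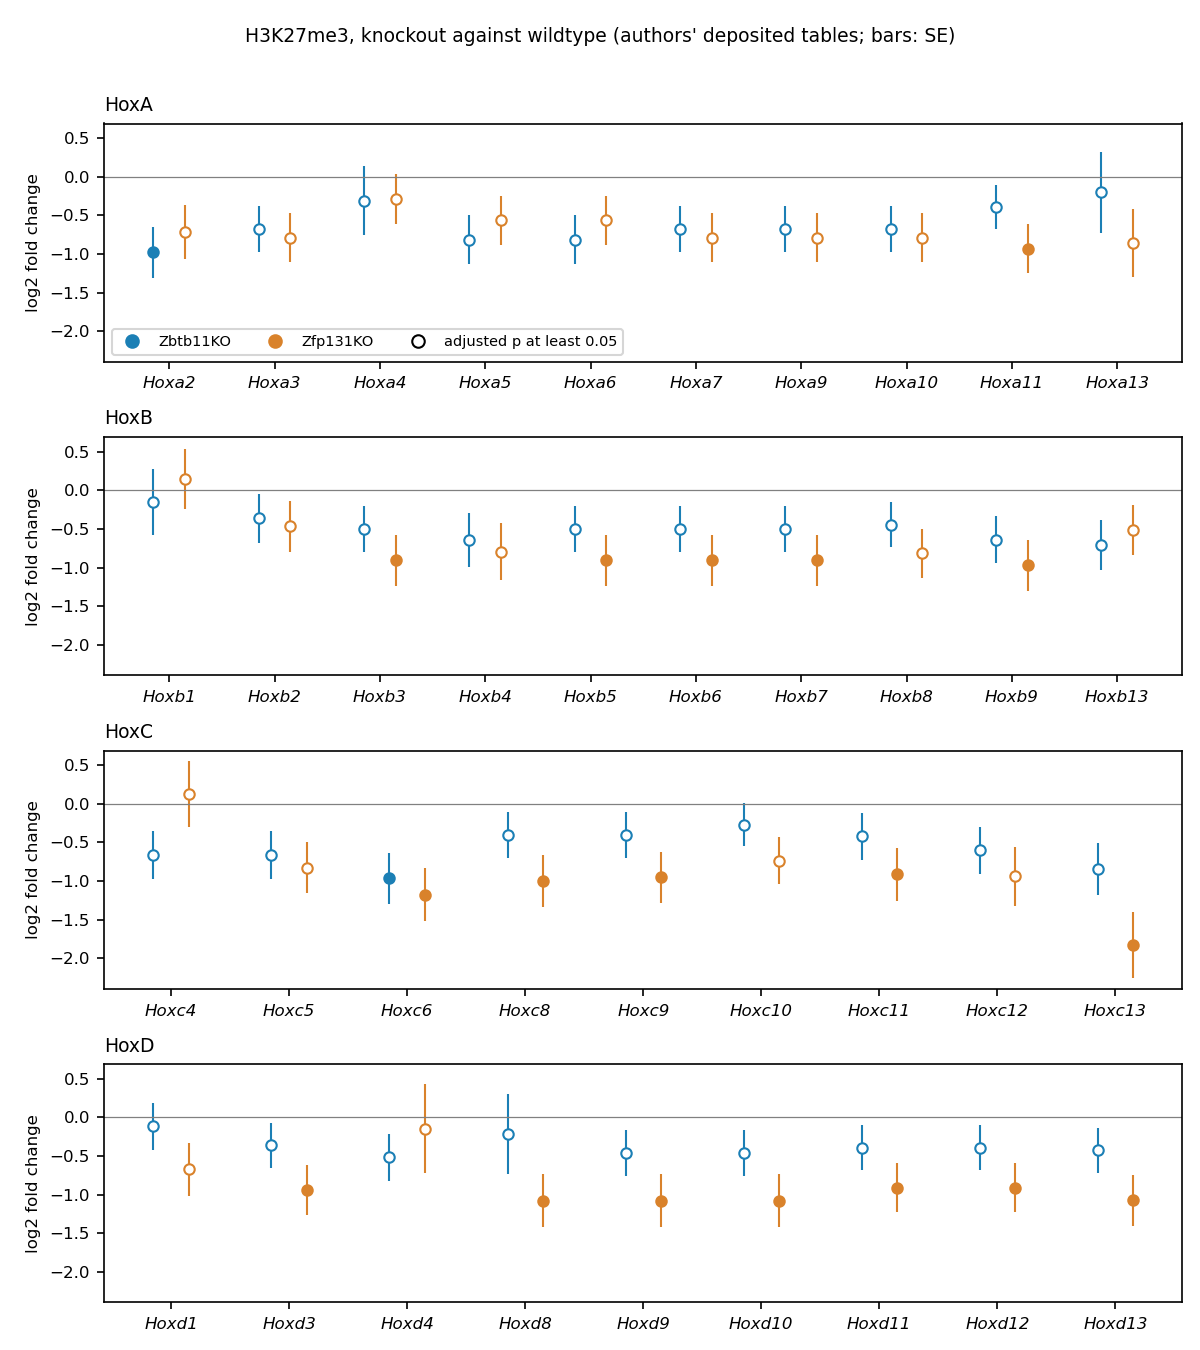
log2 fold change of H3K27me3 against wildtype at each reported Hox gene in Zbtb11KO and Zfp131KO, from the authors' deposited tables, with bars of 1 SE; filled points passed an adjusted p under 0.05, and neighbours that share a region have the same value. Nearly all points lie below 0, and Hoxc13 in Zfp131KO is the lowest at -1.82.

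Long regions differed from short ones in these tables, so the clusters were also set beside regions of like width, a comparison chosen after the values were seen. Of regions at least 6 kb wide, 14 of 18 inside the Hox clusters fell in Zfp131KO, with a median of -0.94, and 41.8% of 194 elsewhere fell, with a median of -0.79. In Zbtb11KO 2 of 22 such regions fell in the clusters, with a median of -0.46, against 0.357% of 280 elsewhere, with a median of -0.30. Shorter regions inside the clusters stood further from regions of like width. Of those of 1 to 6 kb, 12 of 59 fell in Zbtb11KO (median -0.67, against 1.19% and -0.23 elsewhere) and 19 of 61 in Zfp131KO (median -0.82, against 9.18% and -0.47). Of those under 1 kb, 51 of 167 fell in Zbtb11KO (median -0.96, against 5.14% and 0.12 elsewhere) and 31 of 166 in Zfp131KO (median -0.71, against 5.71% and 0.12). In each width class and both knockouts the clusters thus had the lower median, by least among the long regions. Neighbouring regions share a cluster and are not independent, and the differences were not tested.

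Several related homeobox genes outside the 39 were also called lower in Zfp131KO. Of the 6 ParaHox genes, the sister family of the Hox genes, H3K27me3 fell at Gsx2 (-0.99), Cdx2 (-0.94) and Gsx1 (-0.92) and rose at none in the authors' deposited table. Evx2, the neighbour of Hoxd13, fell as well (-0.87), and Evx1, the neighbour of Hoxa13, stood at -0.66 without passing the test. Of 5 tested genes for TALE homeodomain proteins, the DNA-binding partners of Hox proteins, Meis2 fell (-1.54) in the authors' deposited table. In Zbtb11KO the median of the ParaHox genes was -0.25 and that of the TALE genes -0.24. Of the genes of the retinoic acid pathway, which switches Hox genes on in turn from the anterior end, Aldh1a2, the main enzyme of retinoic acid synthesis, fell in Zfp131KO (-1.01, 1 of 3 tested) and Cyp26b1, an enzyme that breaks retinoic acid down, rose in Zbtb11KO (1.16, 1 of 4 tested) in the authors' deposited tables. H3K4me3 rose at Aldh1a2 (2.55) and at the receptor gene Rarg (1.77) of 5 tested in Zbtb11KO, and at 0 of 5 in Zfp131KO (0 also at an unadjusted DESeq2 p under 0.05), per the authors' deposited tables. Of all genes tested, 42.9% rose in Zbtb11KO and 33.5% in Zfp131KO, so that 2 of 5 is near the share of all genes. The H3K4me3 sizes in Zbtb11KO are not comparable with those of the other comparisons, as described below.

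H3K4me3 was listed at 37 of the 39 genes in wildtype, where 64.2% of all genes were. Zbtb11KO had 36 listed (63.2% of all genes), Zfp131KO 35 (63.7%) and the double knockout 36 (64.9%). Hoxb3 and Hoxd10 had no domain within 1 kb of their annotated ends in any genotype. The lists count reads without scaling, and over all genes the log2 ratio to wildtype had a median of -0.42 (Zbtb11KO), -0.10 (Zfp131KO) and 0.72 (double knockout), so the Hox reads are read relative to those medians. Reads of adjoining domains were joined into 1 stretch per gene for this purpose.

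Against that yardstick the median of the Hox genes stood higher in every knockout. The median of HoxB stood lower in Zfp131KO and the double knockout, and that of groups 5 to 8 in the double knockout. The reads were taken near either end of a gene and are not those of promoters alone. Of the 37 genes, 34 (Zbtb11KO), 27 (Zfp131KO) and 24 (double knockout) lay above the median of all genes. Their own medians lay above it by 0.72, 0.31 and 0.46 on the log2 scale. More than 2-fold above it stood 14 Hox genes of Zbtb11KO (4.32% of all genes), 6 of Zfp131KO (1.83%) and 14 of the double knockout (2.45%). The clusters differed: in Zbtb11KO 6 of 9 HoxC genes, 6 of 8 HoxD genes, 2 of 11 HoxA genes and 0 of 9 HoxB genes were above that line, and in the double knockout 7, 4, 3 and 0. By position, 11 of the 15 genes of groups 9 to 13 were above it in the double knockout, against 2 of 11 of groups 5 to 8 and 1 of 11 of groups 1 to 4.

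Listed H3K4me3 reads are given in the order wildtype, Zbtb11KO, Zfp131KO, double knockout. Hoxc13 had 1407, 1964, 3636 and 5960. Hoxd9, which patterns the limb and lumbar axis, had 838, 1962, 1513 and 4025. Both genes stood higher in each knockout list than in wildtype and highest in the double knockout, whose list also holds the most reads. Hoxd8 had 521, 1645, 715 and 1607 reads, and Hoxc8, a gene of the thoracic region, 131, 610, 278 and 573. At these 2 genes, and at Hoxa10 with 199, 895, 292 and 808 reads, Zbtb11KO stood far above Zfp131KO. Relative to all genes it also stood above the double knockout, with log2 ratios of 2.64 against 1.41 at Hoxc8, 2.08 against 0.91 at Hoxd8 and 2.59 against 1.30 at Hoxa10. Hoxc9 had 63, 166, 112 and 503 reads, the largest ratio of the double knockout to wildtype among the 37.

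Hoxa5, a gene of lung and thoracic development, had 3612, 3574, 4214 and 5391, more than Hoxc13 in each list but that of the double knockout. HoxB lay above all genes in Zbtb11KO, with a cluster median of 0.19 relative to them and 7 of 9 genes above 0. In the other knockouts it lay below them, with medians of -0.70 (Zfp131KO) and -0.56 (double knockout) and 1 of 9 genes above 0 in each. Hoxb1, the hindbrain gene, had 630, 419, 360 and 146 reads, and its log2 ratio of -2.11 in the double knockout is the lowest of the 37 genes in any list. Hoxb7 and Hoxb8, which share a stretch, had 1395, 1152, 690 and 1549, and Hoxa2 had 655, 365, 340 and 570.

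**Figure D3:**
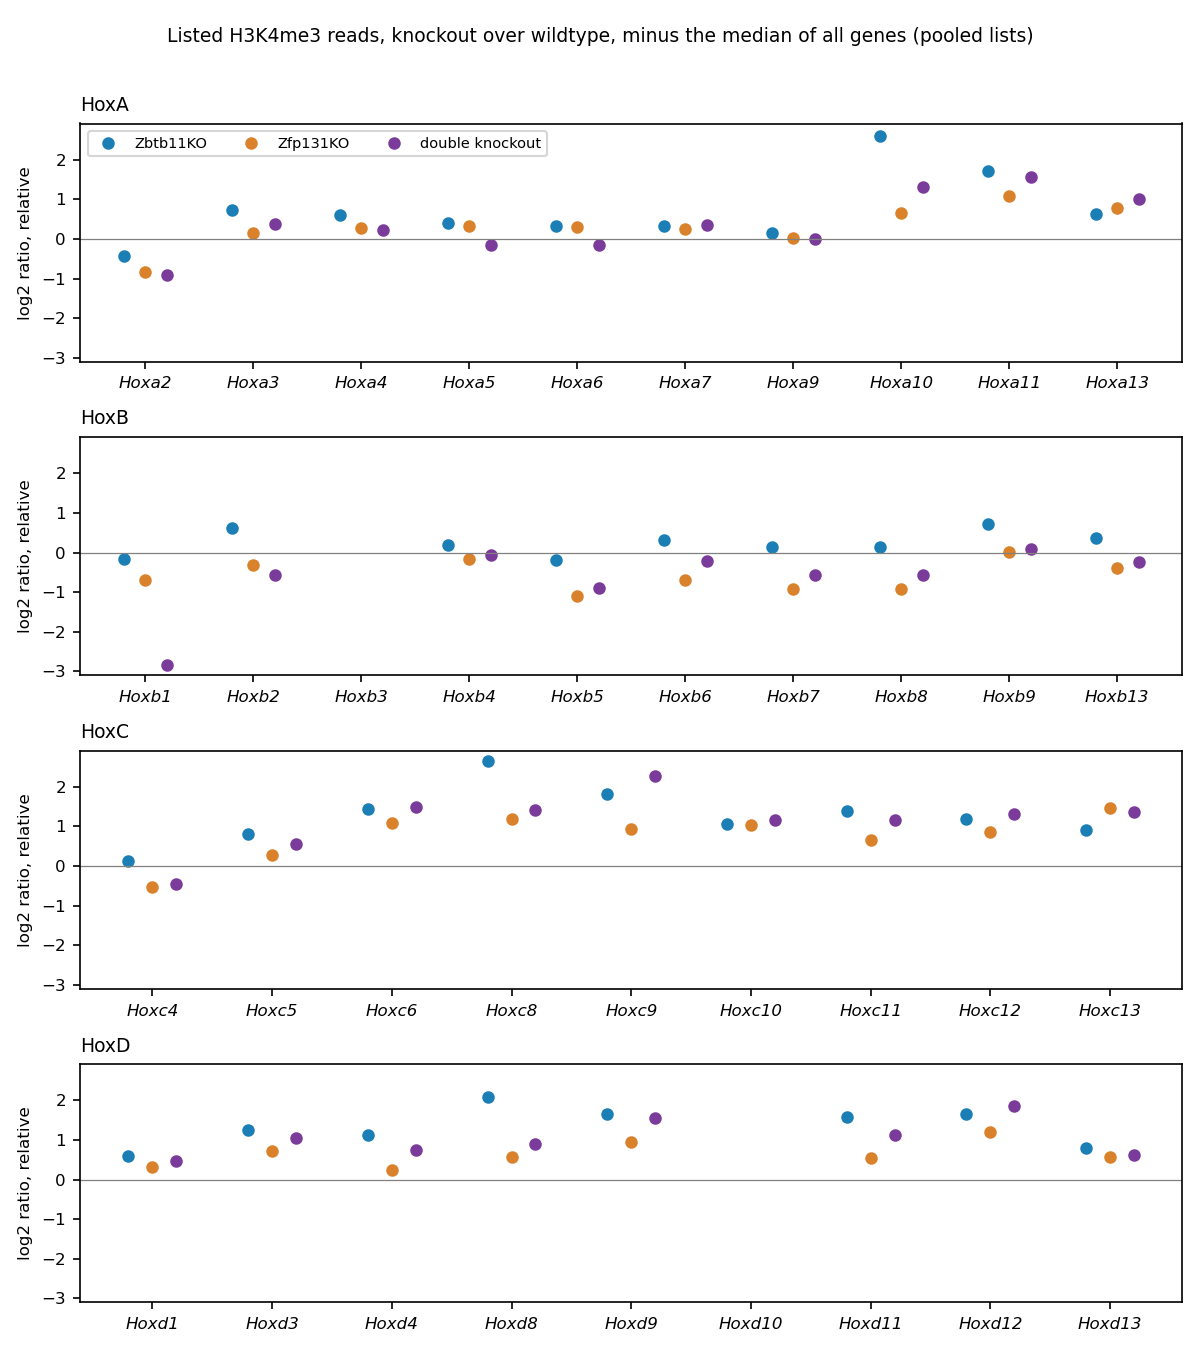
Listed H3K4me3 reads of each reported Hox gene in Zbtb11KO, Zfp131KO and the double knockout over wildtype, as log2 ratios from pooled lists minus the median of all genes (0 on the vertical axis), 1 point per gene and genotype. HoxC and HoxD genes lie mostly above 0, HoxB genes in Zfp131KO and the double knockout mostly below it, and Hoxb1 in the double knockout is the lowest point at -2.83.

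The authors' deposited tables test H3K4me3 in the single knockouts. In Zbtb11KO it rose at 19 of 37 Hox genes tested and fell at 1, where 42.9% of the 14061 genes tested rose and 24.8% fell; the share of rises is thus near that of all genes, and the share of falls below it. The Hox median was 0.89 against 0.18 over all genes tested. Rises were found at 7 of 11 HoxA genes, 2 of 9 HoxB genes (Hoxb2 and Hoxb9), 6 of 9 HoxC genes and 4 of 8 HoxD genes. The largest were Hoxc8 at 3.67 (SE 0.27, adjusted p = 7.54e-41), Hoxd8 at 3.65 (SE 0.19, adjusted p = 1.67e-84), Hoxa10 at 2.50 (SE 0.34, adjusted p = 8.36e-13) and Hoxd9 at 2.35 (SE 0.17, adjusted p = 1.57e-44) as given in the authors' deposited table. The Hoxa10 rise lies at chr6:52229506-52230954, on the side of Hoxa9, and at the annotated starts of Hoxa10 the value was 0.27 without passing the test. Hoxb1 fell, at -0.91 (SE 0.34, adjusted p = 0.0249), a call that was lost when the table's median was subtracted (-0.74). The strongest regions of HoxB and HoxC rose as well: Hoxb9 at 1.76 (SE 0.14, adjusted p = 2.66e-34) and Hoxc13 at 1.02 (SE 0.20, adjusted p = 1.75e-06) by the authors' deposited table.

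That table spreads wider than the reads do. Over 17639 regions with more than 200 reads in both lists, its fold changes followed the log2 ratio of listed reads with a slope of 1.99 and an intercept of 1.16 (r = 0.840 across regions, which are not independent replicates), where the table of Zfp131KO had a slope of 0.90 and an intercept of 0.32 over 17805 regions. Hoxc8, Hoxa10 and Hoxd8 lead in both, and the sizes in that table are not comparable with those of the other tables.

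In Zfp131KO, H3K4me3 rose at 11 of 37 Hox genes tested and fell at none (17 higher and 0 lower at an unadjusted DESeq2 p under 0.05), where 33.5% of the 14277 genes tested rose and 4.18% fell, so that again the share of rises is no larger than that of all genes. The median was 0.53 against 0.24 over all genes tested. Rises were found at 5 of 11 HoxA genes, 0 of 9 HoxB genes (0 also at an unadjusted p under 0.05), 2 of 9 HoxC genes and 4 of 8 HoxD genes, and at 7 of 15 genes of groups 9 to 13. Hoxc13 was the largest at 1.99 (SE 0.13, adjusted p = 3.25e-47) over chr15:102921032-102922920 in the authors' deposited table. Hoxd11 at 1.95 (SE 0.39, adjusted p = 9.92e-06) rests on a region of 33 bp, and with the region of most signal over its width it stood at 0.15 without passing the test. Hoxd9 rose by 1.11 (SE 0.24, adjusted p = 6.60e-05) and Hoxc12 by 0.91 in the authors' deposited table. The strongest HoxA and HoxD regions of this comparison, at Hoxa5 and Hoxd1, rose by 0.53 each (adjusted p = 2.37e-06 and 0.000353), and that of HoxB, at Hoxb9, stood at 0.20 (adjusted p = 0.566). Among the other homeobox genes H3K4me3 rose at Evx1 (0.99), at 1 of 6 ParaHox genes and at 2 of 9 TALE genes in Zfp131KO, and at 2 of 6 and 7 of 9 in Zbtb11KO, per the authors' deposited tables.

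**Figure D4:**
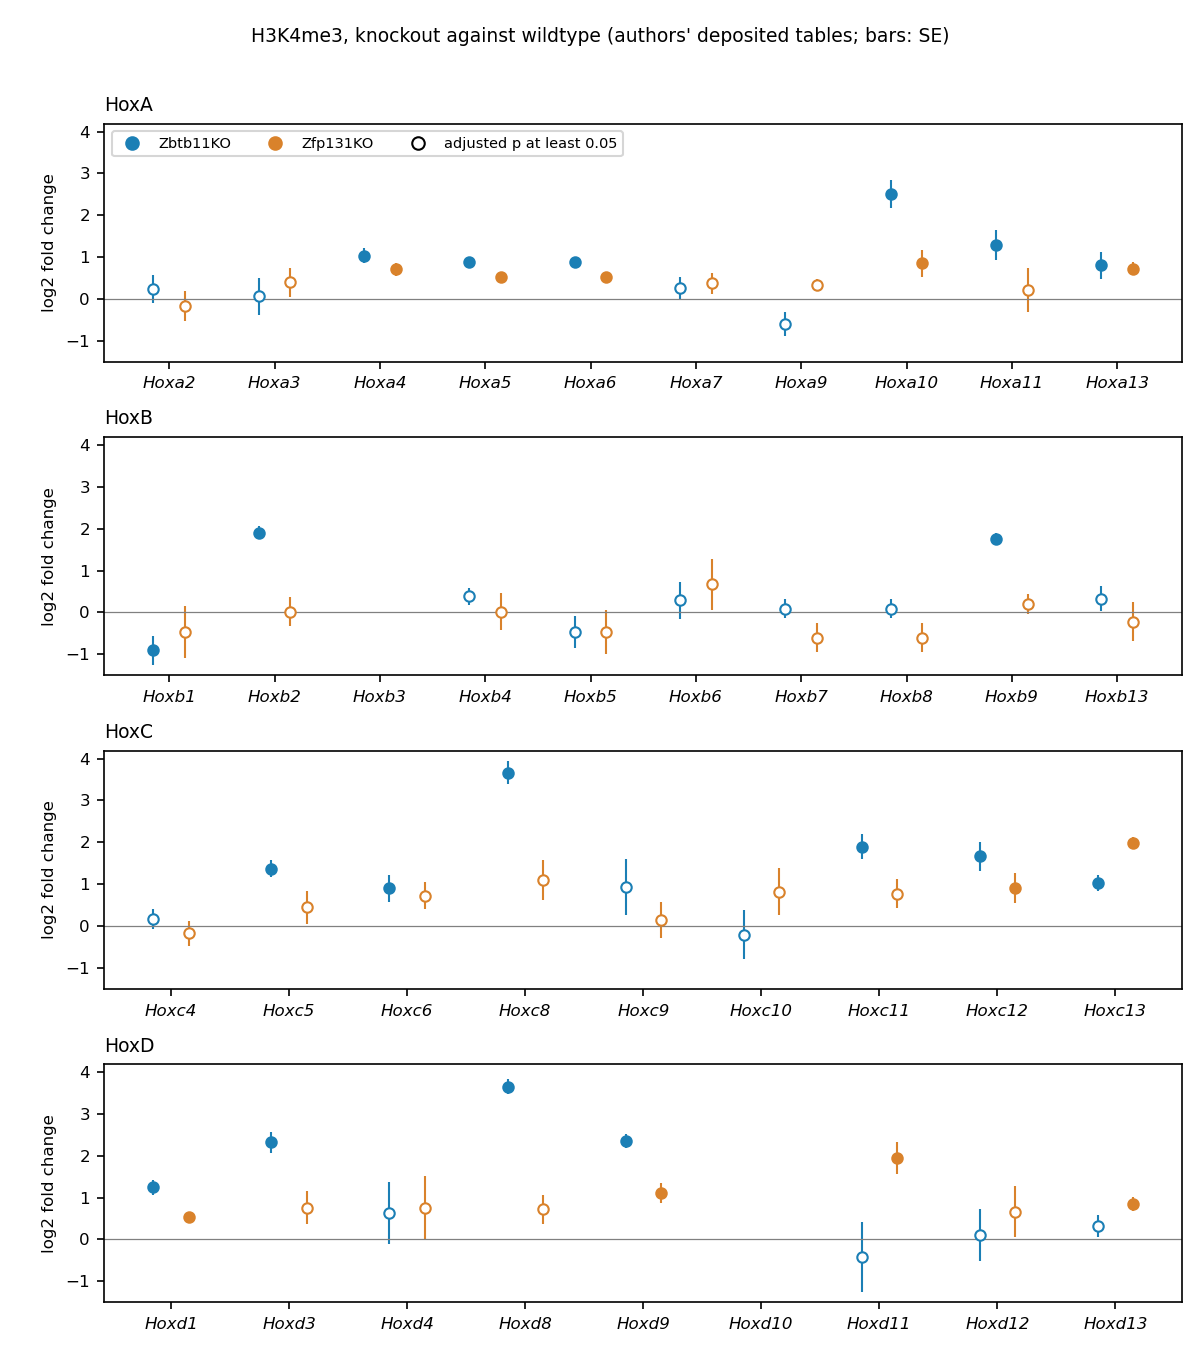
log2 fold change of H3K4me3 against wildtype at each reported Hox gene in Zbtb11KO and Zfp131KO, from the authors' deposited tables, with bars of 1 SE; filled points passed an adjusted p under 0.05, and Hoxb3 and Hoxd10 have no region. Filled points above 0 stand in HoxA, HoxC and HoxD, HoxB has 2 of them, and Hoxc8 (3.67) and Hoxd8 (3.65) in Zbtb11KO are the highest.

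Some genes had both lower H3K27me3 and higher H3K4me3. In Zfp131KO, 4 genes had both calls (Hoxc13, Hoxd9, Hoxd11 and Hoxd13), which are 22.2% of the 18 with lower H3K27me3 and 36.4% of the 11 with higher H3K4me3. In Zbtb11KO it was Hoxc6, 1 of 2 and 1 of 19. All 5 are of paralog group 6 or higher, and none is in HoxA or HoxB. The H3K4me3 call at Hoxd11 rests on the 33-bp region named above, which lies past the gene's annotated end. Over all genes tested for both marks, 2.68% had both calls in Zfp131KO, which are 39.3% of those with lower H3K27me3 and 9.57% of those with higher H3K4me3, and 1.64% had both in Zbtb11KO. Of the 16 Hox genes with lower H3K27me3 in Zfp131KO that were tested for both marks, 25.0% had both calls. Both marks were compared with their own wildtype samples, so these counts share no control.

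NELF, the negative elongation factor that holds polymerase just past the start site, had a listed event at 31 of the 39 genes in wildtype (59.3% of all genes). Each single knockout had 16 listed (Zbtb11KO 43% of all genes, Zfp131KO 44%), and the double knockout 7 (29.1%). Of the 29 Hox genes with at least 50 reads in wildtype, 15, 15 and 6 kept an event, and of all such genes 72.5%, 74.2% and 49.2% did. Hox events are small, and weak events drop off a list first: among the 15 Hox genes with 106.8 to 218.4 wildtype reads, 8, 7 and 3 kept an event, where 29.8%, 34.6% and 9.56% of 1558 other genes in that range did. At matched strength the shares of Hox genes with an event were thus not below those of other genes, a comparison chosen after the values were seen and not tested.

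Hoxd9 had the most NELF, with 531.5 reads assigned in wildtype, then 406.8, 207 and 135.8 (Zbtb11KO, Zfp131KO, double knockout). Hoxb2, a hindbrain gene, had 475.3, 270, 164.2 and 78.3, and Hoxa5 had 430.5, 112.7, 86.9 and no event. Hoxc13 differed, with 185.9, 91.4, 214.5 and 115.3, its highest value being that of Zfp131KO. These 7 genes had an event in the double knockout: Hoxa4, Hoxa10, Hoxb2, Hoxc6, Hoxc12, Hoxc13 and Hoxd9. Hoxa10 was listed for NELF in that list and in no other, at 62.4 reads. Hoxc9 was listed at 49.5 reads in wildtype and 88.3 in Zbtb11KO, the one member with more reads per M reads there than in wildtype.

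**Figure D5:**
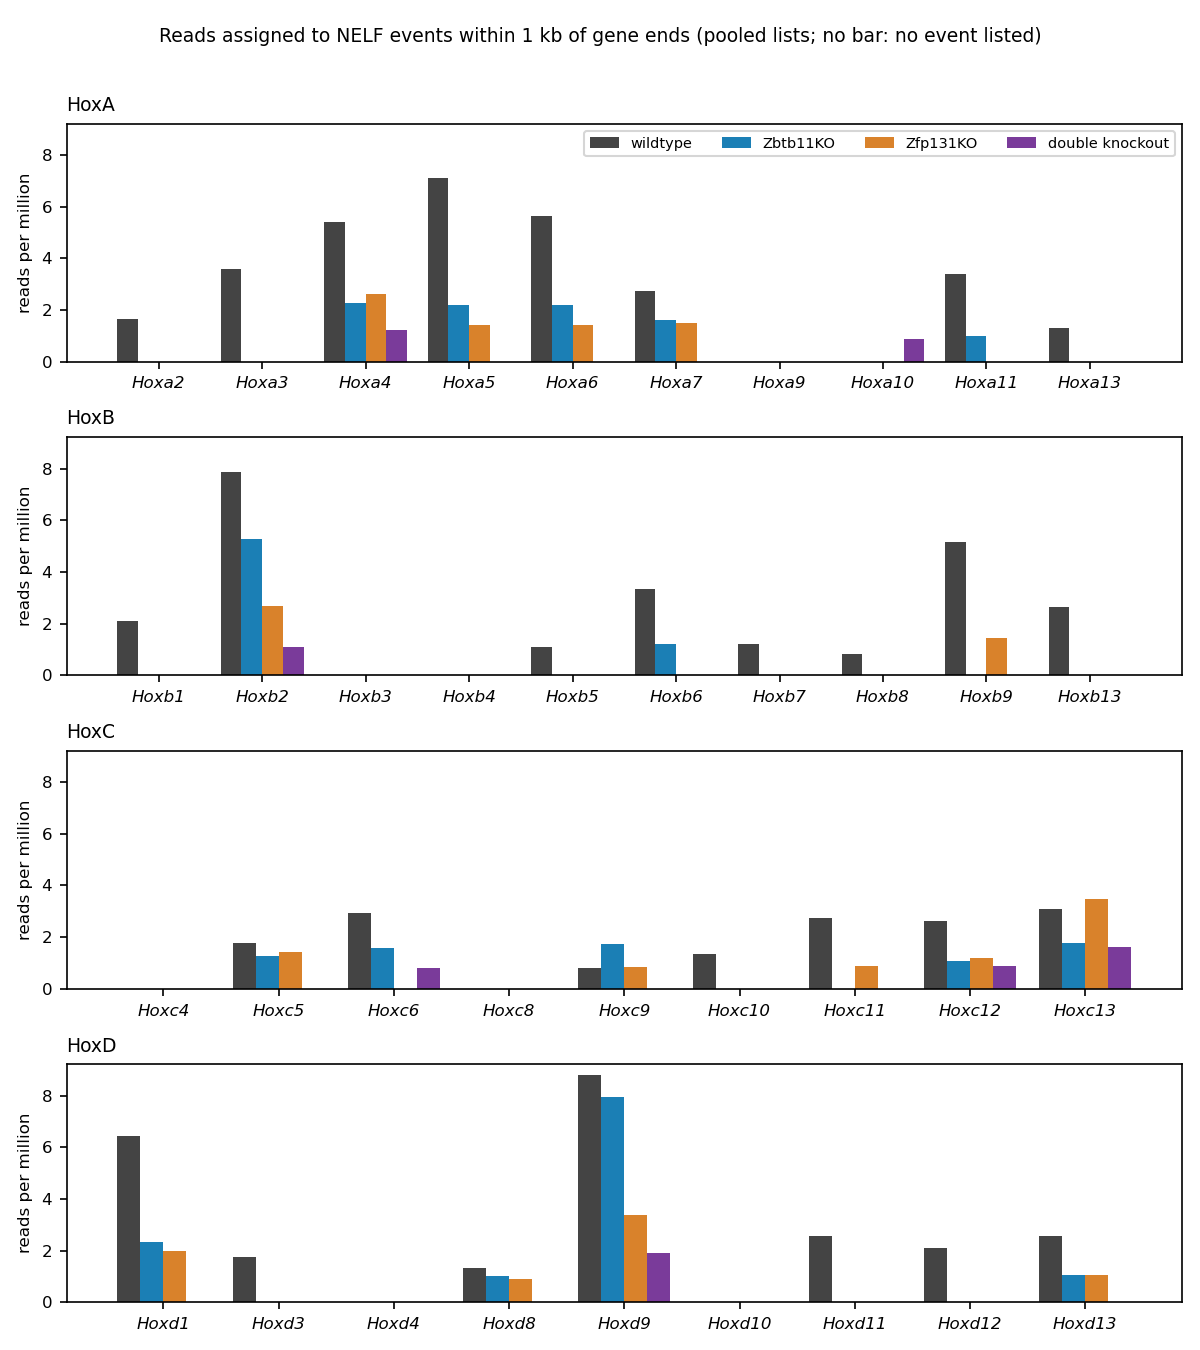
Reads per M reads assigned to NELF events within 1 kb of each reported Hox gene in wildtype, Zbtb11KO, Zfp131KO and the double knockout (pooled lists; bars start at 0 and no bar means that no event was listed). Hoxd9 and Hoxb2 are highest in wildtype, at 8.78 and 7.85, and 7 genes have a bar for the double knockout.

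The authors' deposited table of NELF in Zbtb11KO tested 34 Hox genes: 8 fell and none rose (10 lower and 0 higher at an unadjusted DESeq2 p under 0.05), where 55.3% of the 13321 genes tested fell and 0.0901% rose. The Hox median was -0.73, against -0.97 over all genes, so by this table the Hox values were less negative than the middle of all genes. The event lists give the opposite order: at the 15 Hox genes with an event in both lists the log2 ratio of NELF reads per M reads had a median of -1.24 in Zbtb11KO, against -0.91 over all genes with at least 50 wildtype reads and an event in both. It was -1.31 against -0.73 in Zfp131KO (15 Hox genes) and -1.99 against -1.76 in the double knockout (6 Hox genes). These list medians leave out genes whose event was lost and were not matched for wildtype reads. They thus cover other genes than the deposited comparison, and the difference in order was not tested. The lowest were Hoxb9 at -2.00 (SE 0.54, adjusted p = 0.00195), Hoxa9 at -1.79 (SE 0.55, adjusted p = 0.00645), Hoxb1 at -1.75 (SE 0.60, adjusted p = 0.0138) and Hoxd3 at -1.70 (SE 0.60, adjusted p = 0.0155) as given in the authors' deposited table. The strongest NELF regions of HoxB, HoxC and HoxD were not called: Hoxb2 stood at -0.08, Hoxc13 at -0.39 and Hoxd9 at -0.20 in the authors' deposited table. After subtracting the median of all regions, -1.04, none of the 34 passed the test (4 higher and 0 lower at an unadjusted p under 0.05), where 0.225% of all genes rose and 0.285% fell. Of the related genes, NELF fell at Cdx1 (-2.49), Gsx2 (-2.11) and Gsx1 (-1.54) of 6 ParaHox genes, at Evx1 (-1.75), and at Pbx3 (-1.41), Pbx4 (-1.33) and Pbx2 (-1.19) of 7 TALE genes tested.

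Tagged ZBTB11 had events at 17 of the 39 Hox genes, 43.6%, where 35.9% of all genes had one. By cluster these were 6 of 11 in HoxA (Hoxa3, Hoxa4, Hoxa5, Hoxa6, Hoxa7 and Hoxa11), 2 of 10 in HoxB (Hoxb1 and Hoxb2), 5 of 9 in HoxC (Hoxc5, Hoxc9, Hoxc11, Hoxc12 and Hoxc13) and 4 of 9 in HoxD (Hoxd1, Hoxd3, Hoxd9 and Hoxd13). The events were weak for that list, from 37.7 reads at Hoxa11 to 108.1 at Hoxa4, and the median event of the list had 75.1. On Hoxd1 the event sat at the annotated start, at the end of the sequence printed above, on Hoxa3 32 bases upstream of it, on Hoxb1 92 and on Hoxa6 94 bases downstream. Tagged ZFP131 had events at 3 genes (7.69%, where 10.2% of all genes had one): Hoxb2 with 40.4 and 30.9 reads, Hoxc13 with 45.6 and Hoxd9 with 52. All 3 also carry ZBTB11. The positions nearly coincide at Hoxc13, chr15:102921630 for ZBTB11 and chr15:102921628 for ZFP131, while on Hoxd9 they lie 359 and 46 bases downstream of the annotated start.

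In wildtype, NELF, SIN3A and polymerase were listed at a larger share of the genes with a ZBTB11 event than of those without. All 17 had NELF and SIN3A events there, and 14 and 16 of the 22 without a ZBTB11 event had them, where 59.3% and 60.5% of all genes did. The median NELF value was 185.9 reads against 76.55, and serine 5 polymerase was listed at 10 of 17 against 3 of 22 (57.4% of all genes). In Zbtb11KO, H3K4me3 rose at 12 and fell at 1 of the 17 and rose at 7 of 20 tested genes without an event, with medians of 1.04 and 0.31 in the authors' deposited table. Of all genes tested there, 42.9% rose and 24.8% fell. For H3K27me3 in that knockout the medians were -0.43 and -0.50, and for NELF -0.57 and -1.09. In Zfp131KO the H3K4me3 medians were 0.53 and 0.52. These groups overlap with the clusters and with the level of the mark, and the difference between them was not tested. Genes outside the Hox clusters were not split by ZBTB11 event, so whether these differences are particular to Hox genes was not tested.

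Among the other chromatin proteins, SETD1A had events at 21 Hox genes in wildtype (43.7% of all genes): Hoxa2 to Hoxa6, Hoxa11 and Hoxa13, Hoxb2, Hoxb6 and Hoxb9, Hoxc8 and Hoxc10 to Hoxc13, and Hoxd1, Hoxd3, Hoxd8, Hoxd9, Hoxd11 and Hoxd13. Its strongest event was on Hoxd1, at 108 reads, below the list's median of 119.1. SIN3A, the scaffold of a histone deacetylase complex, was listed at 33 genes in wildtype (60.5% of all genes) and 32 in Zbtb11KO (58.1%). Its reads were highest at Hoxc13, with 489.6 in wildtype and 265.9 in Zbtb11KO. In the authors' deposited tables SIN3A was called at none of 35 tested Hox genes in Zbtb11KO (3 higher and 0 lower at an unadjusted DESeq2 p under 0.05; 5.6% of all genes rose and 2.33% fell) and rose at 1 of 25 in Zfp131KO, Hoxc13 at 0.86 (SE 0.22, adjusted p = 0.00446), where 5.62% of all genes rose and 1.57% fell.

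CHD4, the remodeller of the NuRD complex, was listed at 3 Hox genes in wildtype (11.3% of all genes), 5 in Zbtb11KO (6.27%) and 8 in Zfp131KO (12.5%). Hoxa4 carried the main event, with 130.6 reads in wildtype (rank 178 of 7687), 76 in Zbtb11KO and 114.2 in Zfp131KO. Hoxa5 and Hoxa6 share a wildtype event of 45.4 reads; Hoxa5, Hoxb2, Hoxc12 and Hoxd3 were listed beside Hoxa4 in Zbtb11KO, and Hoxa3, Hoxa5, Hoxa6, Hoxb9, Hoxc12, Hoxc13 and Hoxd3 in Zfp131KO. In the authors' deposited tables CHD4 was called at none of 6 tested in Zbtb11KO (0 also at an unadjusted DESeq2 p under 0.05; 2.1% of all genes rose and 0.636% fell). In Zfp131KO it rose at 2 of 10, among them Hoxd13 at 1.68 (SE 0.49, adjusted p = 0.00825), where 1.1% of all genes rose and 6.09% fell. Both regions lie more than 500 bp outside the genes and drop out with a window of 500 bp.

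Serine 5 polymerase and H3K27ac, a mark of active promoters and enhancers, were scarce. Polymerase was listed at 13 Hox genes in wildtype, where 57.4% of all genes were listed. Hoxb9 had 2646 reads, 2085 of them in 1 domain of 4.31 kb; Hoxa6 had 161, Hoxa4 156 and Hoxa5 149, and 5 of the 13 had under 30. Hoxb9 thus lay below the median of 7865 of the stem cell markers. H3K27ac was listed at 6 genes in wildtype (46.2% of all genes), 6 in Zbtb11KO (40.7%) and 7 in Zfp131KO (42.1%). Hoxd9 was listed in both knockouts (27 and 11 reads) and not in wildtype, Hoxc13 in Zfp131KO (43 reads) and in no other genotype, and Hoxb1 in wildtype (27 reads) and in neither knockout.

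The H3K27ac tables tested few Hox genes. In Zbtb11KO, Hoxd9 rose by 1.85 (SE 0.46, adjusted p = 0.000721) and Hoxb1 and Hoxb2 fell by 2.49 (SE 0.79, adjusted p = 0.00949) and by 1.01 (SE 0.34, adjusted p = 0.0151), out of 7 tested in the authors' deposited table, where 3.7% of all genes rose and 9.94% fell. In Zfp131KO, 1 of 8 fell and none rose (1 lower and 1 higher at an unadjusted DESeq2 p under 0.05), where 11.1% of all genes fell and 4.56% rose: Hoxb1, on a region of 64 bp whose fitted fold change depends on reads near 0 in the knockout and is not given as a size (adjusted p = 6.11e-08, authors' deposited table). These regions hold few reads.

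Hoxc13, Hoxd9 and Hoxb2, the 3 genes with both ZBTB11 and ZFP131, did not share 1 pattern. At Hoxc13 H3K27me3 fell, and H3K4me3 and SIN3A rose, in Zfp131KO, with NELF reads of 214.5 against 185.9 in wildtype. At Hoxd9, H3K4me3 rose in both knockouts, H3K27ac rose in Zbtb11KO and H3K27me3 fell in Zfp131KO, while NELF reads were 531.5 in wildtype and 135.8 in the double knockout. At Hoxb2, H3K4me3 rose in Zbtb11KO (1.90, SE 0.15, adjusted p = 5.59e-34) and H3K27ac fell there in the authors' deposited tables, and H3K27me3 stood at -0.36 (Zbtb11KO) and -0.47 (Zfp131KO) without passing the test. Its listed H3K4me3 reads were 1842, 2121, 1367 and 2058 in the order used above.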

How the data were processed

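Samples were grouped by target, genotype and medium as labelled, 2 per group. The submitters' processing notes name Bowtie 1.0.1, bedtools, DESeq2 1.28.1 and the mm10 build. MultiGPS made the event lists (NELF, CHD4, SIN3A, SETD1A, HA), per the file headers: each event has a signal, which is the number of reads assigned to it, a log2 fold over its control and, as a score, a log2 p-value. DomainFinder, run on pooled replicates with p under 0.01, made the domain lists of histone marks and polymerase, per the file headers, where every domain comes with a count of reads and its p-value. Tables from DESeq2, deposited by the authors, give for each region the mean signal, the log2 fold change and its SE, a Wald score, and p-values before and after adjustment. Their scaling is not given in the sources used here. For H3K4me3 in Zfp131KO, mean signal per listed read fell with region width (r = -0.997 on log scales), against r = 0.214 in Zbtb11KO. For H3K27me3 in Zfp131KO a 40-bp region at Hoxa4 had a mean signal of 340, and the 31123-bp HoxA region had 200. A high mean signal thus need not mean many reads, and the strongest region is the one of highest mean signal. A deposited NELF table for Zfp131KO and a SIN3A list for Zfp131KO repeat the values of another file and were not used.

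A gene took the reads of every entry within 1 kb (alternative 500 bp) of either RefSeq end, and from a table the region of highest mean signal there. A table's call is its adjusted p under 0.05 over all its regions. Named with values were, per comparison, up to 4 members with the largest rise and fall among those called and the strongest region of each cluster, and from the lists the members with an event; genes outside this rule were chosen after their values were seen. H3K4me3 domains were joined into stretches, and genes with at least 50 wildtype reads entered ratios. Scripts (Python 3.11.15, pandas 2.3.3, numpy 2.4.6) were tested on simulated data. The members and lists were chosen with earlier results of these data known. No counts per library were used, so no leave-one-out fit was made. Counts cover all 39 genes, and the values of 1 HoxA gene are not reported here.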

Additional observations from a re-analysis of the deposited data

How the results depend on the processing

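No paired analysis was possible because the deposited values are pooled over the samples of a group or come from finished comparisons; for the same reason no replicate could be left out. No result reversed. Of 82 counts from the comparisons and from the NELF and H3K4me3 lists recomputed under an alternative, 62 stayed within 1.5 times and 20 did not. The other recomputed values were counts from the remaining lists and fold changes of named genes. Of these, 142 stayed the same and 10 counts moved by more than 1.5 times. A further 18 fold changes kept their sign but no longer passed the threshold. Using the end with the transcription start, known for 22 genes, the calls were 8 for H3K4me3 in Zbtb11KO (10 for the same 22 genes with both ends), 5 in Zfp131KO (8), 1 and 9 for H3K27me3 (1 and 8), 4 for NELF (6), 0 for CHD4 in Zfp131KO (1) and 0 for SIN3A in Zfp131KO (0). With the region of smallest adjusted p they were 11 for H3K27me3 in Zbtb11KO, 5 and 2 for H3K27ac (of 3 and 1) and 3 for SIN3A in Zfp131KO. With the region of most signal over its width, chosen after seeing the data, they were 5 for H3K27me3 and 5 for H3K27ac in Zbtb11KO. At an adjusted p under 0.01, 0 and 2 calls were left for H3K27me3 in Zbtb11KO and Zfp131KO, and 2 for NELF. Centring on the median of all regions left 0 NELF calls. A window of 500 bp gave 0 CHD4 calls in Zfp131KO and 10 genes with NELF in Zfp131KO (of 16), and a p under 1e-05 left 3 genes with NELF in the double knockout (of 7). Apart from the changes in the number of genes tested, the causes were not tested. Most Hox events of ZBTB11, ZFP131, SETD1A and CHD4 hold under 110 reads, and how depth bears on them was not tested.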
